A study of Rattus norvegicus with 6 samples.

Results

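The glycolytic isoforms that cells other than hepatocytes mainly use were taken from the table of gene expression by their symbols: the hexokinases Hk1, Hk2 and Hk3, the phosphofructokinase Pfkp, the aldolases Aldoa and Aldoc, the pyruvate kinase Pkm, the lactate dehydrogenase subunit Ldhb, and the glucose transporters Slc2a1 and Slc2a3. These 10 symbols matched 11 of the 19616 genes listed, because Pkm stood there with 2 identifiers, ENSRNOG00000011329 on chromosome 8 and ENSRNOG00000047276 on chromosome 20. RNA of whole liver was sequenced from 3 male Sprague-Dawley rats with fibrosis (FL group, rats 2, 5 and 12), which had received carbon tetrachloride with an equal part of olive oil into the abdomen for 5 weeks (2 injections weekly, 2 mL/kg each), and from 3 male control rats that were given olive oil in the same volume (CL group, rats 5, 6 and 7). Carbon tetrachloride is a solvent that injures hepatocytes, and repeated doses leave scar tissue. Expression was given as FPKM (fragments relative to transcript length and to all mapped fragments of the library), which can be set side by side between genes. This holds less for genes with copies, because only uniquely mapped reads were counted. The sum of all FPKM ran from 309425 to 340467 over the CL rats and from 272110 to 309226 over the FL rats.

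Glycolysis breaks glucose down to pyruvate, and several of its steps are run by different enzymes in hepatocytes and in other cells. Hepatocytes take up glucose through Slc2a2 and use Pfkl and Pklr further down, forms that also suit a tissue that makes glucose. Most other cells carry Slc2a1 or Slc2a3, hexokinases of high affinity, and Pkm.

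The label of the genes was compared with the levels in the control livers. In the CL group, Aldoa reached 16.3 ± 2.19 FPKM (SD, n = 3). Every other single gene lay below 2 FPKM on average, from 1.43 ± 0.34 for Slc2a1 down to 0.0433 ± 0.00577 for Slc2a3. The 2 Pkm genes together summed to 2.27 ± 0.546 FPKM. The hepatocyte forms of the same steps were higher in the same livers, with Ldha at 124 ± 6.56 FPKM, Slc2a2 at 77.9 ± 4.38, Pklr at 33.4 ± 4.2 and Pfkl at 7.2 ± 0.432. Ldha is also the common form of many other tissues, so Ldhb against Ldha separates hepatocytes from other cells less than the other pairs do. In the order of the CL levels, the 2 Pkm genes, Hk1, Slc2a1 and Ldhb lay within each other's spread or close to it, as did Hk3, Pfkp and Hk2. In the FL group the order below Aldoa (30.9 ± 5.18 FPKM) was led by Pkm on chromosome 8 (4.38 ± 1.09) and chromosome 20 (4.15 ± 1.54), followed by Hk1 (2.37 ± 0.36) and Hk3 (2.23 ± 0.712), and neither pair differed beyond its spread.

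Differences between the groups were tested with limma on log2(FPKM + 0.1) for 14864 genes, those averaging 0.1 FPKM or more, and a gene was called if its adjusted p was under 0.05 and it differed 2-fold or more. On this scale the change of a low gene is understated. Of the 11 genes, 10 could be tested, and Slc2a3 stayed under the filter. Of those 10, 5 were called higher in the FL group (Hk2, Hk3, Pfkp and both Pkm genes) and 0 lower, nor was any lower by limma at an unadjusted p under 0.05 (0 of 10, against 4.04% of all genes), while 9.29% of all genes tested were called higher and 0.935% lower. Without the fold limit, 7 were higher at an adjusted p under 0.05, against 16.9% of all genes, and 1.94% of all genes were lower. Every FL rat lay above every CL rat for 9 of the 10, against 35.7% of all genes, and the reverse held for 4.78% of all genes. Both Pkm genes carry the same symbol, so Pkm enters each of these counts as 2 genes that may not be independent.

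The median log2 fold change was 1.42 over the 10 genes and 0.29 over all genes tested, a shift of the whole table that was 0.08 after median scaling and -0.04 after quantile normalization. Relative to the shift, the median of the 10 genes was 1.13 higher. Over all genes, 1381 were called higher and 139 lower, and with quantile normalization 453 and 231. In bulk liver, a change in the number of cells of a type and a change in the RNA of each cell cannot be told apart.

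**Figure D1:**
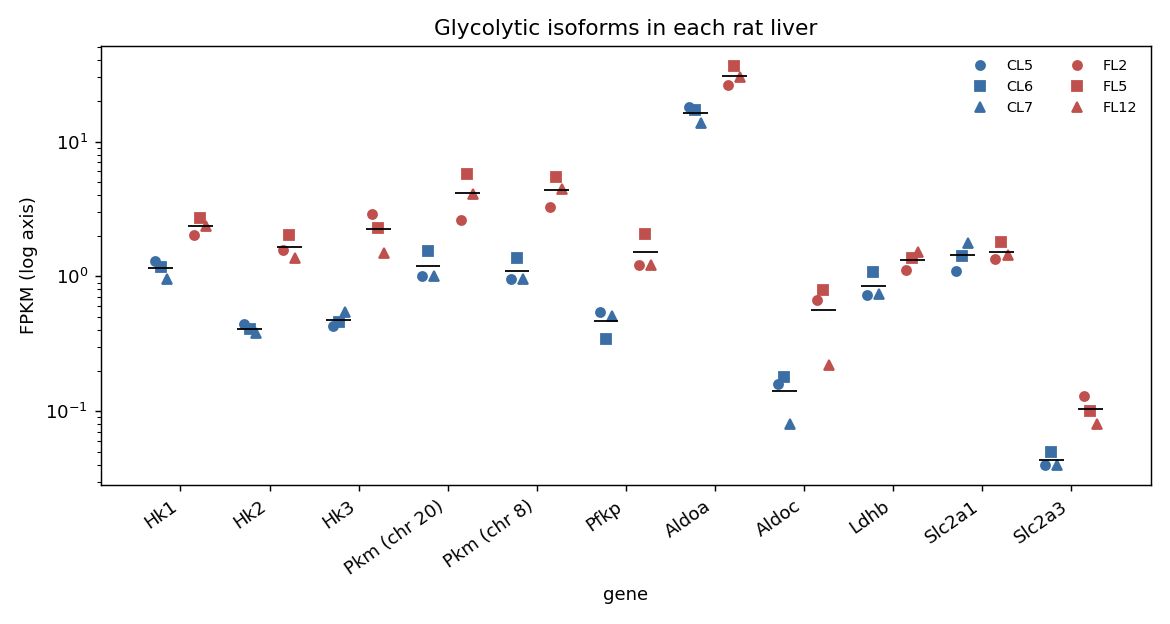
FPKM on a log axis for the 11 genes in each of the 6 rats, with CL rats in blue, FL rats in red and a line at the mean of each group. The FL rats lie above the CL rats for every gene shown except Slc2a1, whose groups overlap.

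Hexokinases phosphorylate glucose and so keep it in the cell. Hk2, the isoform of muscle and of many growing cells, stood at 0.44, 0.41 and 0.38 FPKM in CL rats 5, 6 and 7 and at 1.57, 2.01 and 1.37 FPKM in FL rats 2, 5 and 12. The groups were well apart, with FL rat 5 highest, and the log2 fold change was 1.76 ± 0.23 (SE, adjusted p = 0.00435), or 0.90 with a pseudocount of 1, which was under the 2-fold limit. Hk3, a hexokinase of blood and immune cells, stood at 0.43, 0.46 and 0.54 FPKM in the CL rats and at 2.91, 2.28 and 1.49 FPKM in the FL rats in the same order. Here FL rat 2 was highest and FL rat 12 lowest, and the log2 fold change was 1.97 ± 0.27 (adjusted p = 0.0049). It was 1.10 with a pseudocount of 1 and 1.42 with quantile normalization, and Hk3 was called in both.

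Hk1, the hexokinase found in most tissues, measured 1.30, 1.17 and 0.96 FPKM in the CL rats and 2.01, 2.73 and 2.36 FPKM in the FL rats. Its groups did not overlap either, but the log2 fold change of 0.99 ± 0.20 (adjusted p = 0.0145) fell just short of the 2-fold limit. It passed that limit without CL rat 5 (log2 fold change 1.08, adjusted p = 0.0345), without CL rat 6 (1.01, 0.0443), without FL rat 2 (1.09, 0.0126) or with a pseudocount of 0.01 (1.04, 0.015). Its adjusted p was above 0.05 without CL rat 7 (0.0597), without FL rat 5 (0.0562) and with quantile normalization (0.0961), the highest of 14 alternatives.

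Hk1, Hk2 and Hk3 together summed to 2.17, 2.04 and 1.88 FPKM in the CL rats and to 6.49, 7.02 and 5.22 FPKM in the FL rats. Each FL rat had more than each CL rat. Of that sum, Hk1 made up 59.9%, 57.4% and 51.1% in the CL rats and 31.0%, 38.9% and 45.2% in the FL rats, Hk2 made up 20.3%, 20.1% and 20.2% in the CL rats and 24.2%, 28.6% and 26.2% in the FL rats, and Hk3 made up 19.8%, 22.5% and 28.7% in the CL rats and 44.8%, 32.5% and 28.5% in the FL rats. Hk1 was thus the leading hexokinase of these in every rat except FL rat 2, where Hk3 led. The share of Hk1 was lower and that of Hk2 higher in every FL rat than in every CL rat, and the share of Hk3 overlapped between the groups.

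Phosphofructokinase carries out the first step that commits sugar to glycolysis. Pfkp, the platelet form, measured 0.54, 0.34 and 0.51 FPKM in the CL rats and 1.22, 2.07 and 1.22 FPKM in the FL rats. FL rat 5 stood out above the other FL rats, and the log2 fold change was 1.49 ± 0.29 (adjusted p = 0.0131). The call was lost with quantile normalization (adjusted p = 0.0866, the highest of a range from 0.0133), and with a pseudocount of 1 the log2 fold change was 0.76. Pfkl, the liver form, measured 7.2 ± 0.432 FPKM in the CL and 9.14 ± 0.87 FPKM in the FL group (log2 fold change 0.34, adjusted p = 0.0902, or 0.12 with median scaling and 0.08 with quantile normalization), and so stayed the main form, with Pfkp at 10.3%, 17.7% and 10.8% of the phosphofructokinase FPKM in the FL rats and 4.05% to 6.68% in the CL rats.

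Aldolase splits the 6-carbon sugar. Aldoa, the form of muscle and of most other cells, measured 18.0, 17.1 and 13.8 FPKM in the CL rats and 26.2, 36.4 and 30.1 FPKM in the FL rats. No FL rat reached down to a CL rat, and the log2 fold change of 0.92 ± 0.16 (adjusted p = 0.00979) was under the 2-fold limit, which it passed without FL rat 2 (1.03, adjusted p = 0.00777, in a range of 0.00777 to 0.0411). Aldoc, the brain form, measured 0.16, 0.18 and 0.08 FPKM in the CL rats and 0.67, 0.79 and 0.22 FPKM in the FL rats. FL rat 12 lay close to the CL rats, and the log2 fold change of 1.35 ± 0.46 did not pass (adjusted p = 0.0760), although it did without FL rat 12 (1.81, adjusted p = 0.0296, in a range of 0.0296 to 0.353). The log2 fold change of Aldoc was 0.43 with a pseudocount of 1 and 0.76 with quantile normalization.

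Pyruvate kinase makes pyruvate in the last step. Pkm on chromosome 8 measured 0.95, 1.36 and 0.95 FPKM in the CL rats and 3.26, 5.43 and 4.45 FPKM in the FL rats, a log2 fold change of 1.90 ± 0.23 (adjusted p = 0.00402). Pkm on chromosome 20 measured 1.01, 1.54 and 1 FPKM in the CL rats and 2.64, 5.72 and 4.09 FPKM in the FL rats, a log2 fold change of 1.69 ± 0.30 (adjusted p = 0.01). FL rat 5 was highest and FL rat 2 lowest of the FL rats for both. The authors counted only uniquely mapped reads, so reads shared by 2 genes of the same symbol may be divided between them or lost, and each level alone is uncertain. The ratio of the chromosome 20 to the chromosome 8 value lay between 0.81 and 1.13 in the 6 rats. The splice forms of Pkm cannot be separated in values given per gene. Summed over both, Pkm was 6.32 ± 0.849% of pyruvate kinase FPKM in the CL group and 19.4 ± 8.45% in the FL group, with 12.5%, 28.8% and 17.0% in FL rats 2, 5 and 12. Pklr, the form of liver and red cells, gave a log2 fold change of 0.12 (adjusted p = 0.659) that became -0.10 with median scaling.

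Lactate dehydrogenase interconverts pyruvate and lactate. Ldhb measured 0.73, 1.08 and 0.74 FPKM in the CL rats and 1.11, 1.37 and 1.51 FPKM in the FL rats, with FL rat 2 barely above CL rat 6. Its log2 fold change was 0.60 ± 0.23 (adjusted p = 0.108), which was 0.39 with median scaling and 0.06 with quantile normalization. Ldha measured 124 ± 6.56 FPKM in the CL and 93.3 ± 9.87 FPKM in the FL group, and although each FL rat was below each CL rat its log2 fold change of -0.41 did not pass (adjusted p = 0.0653). With median scaling it was -0.64 (adjusted p = 0.0279, in a range of 0.0279 to 0.161), still short of 2-fold.

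Glucose transporters let glucose across the cell membrane. Slc2a1 measured 1.10, 1.42 and 1.78 FPKM in the CL rats and 1.34, 1.79 and 1.43 FPKM in the FL rats. The groups overlapped, and the log2 fold change of 0.09 ± 0.23 (adjusted p = 0.790) turned to -0.12 with median scaling and to -0.40 with quantile normalization. Slc2a3, the transporter of neurons and white blood cells, measured 0.04, 0.05 and 0.04 FPKM in the CL rats and 0.13, 0.10 and 0.08 FPKM in the FL rats, levels at which the 2 decimals given leave little precision. Without the filter its log2 fold change was 0.50 ± 0.11 (adjusted p = 0.0602). Slc2a2 had a log2 fold change of 0.17 (adjusted p = 0.444), which became -0.06 with median scaling.

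The ratio of an isoform to its hepatocyte counterpart was taken within each rat, after adding 0.1 to the FPKM of both. Median scaling moved these ratios little (1.15 to 1.17 for Pfkp to Pfkl), and quantile normalization moved some of them more. Ratios were compared by an exact permutation test over the rats, two-sided, for which 0.1 is the smallest p that 3 rats against 3 allow, so no ratio could pass 0.05. The log2 ratio of Pkm to Pklr was -4.04, -3.65 and -3.83 in the CL rats and -2.79, -1.30 and -2.27 in the FL rats, a difference of 1.72 (exact p = 0.1, adjusted p = 0.12 over the 6 ratios tested, of which 4 are given). FL rat 5 was highest. The difference was 1.15 for Pfkp to Pfkl and 1.01 for Ldhb to Ldha, each at the same exact p of 0.1. With quantile normalization the difference of Ldhb to Ldha was 0.46, and with a pseudocount of 1 that of Pfkp to Pfkl was 0.45. These ratios were higher in every FL rat than in every CL rat. The ratio of Slc2a1 with Slc2a3 to Slc2a2 overlapped between the groups, with a difference of -0.02 (exact p = 0.7), or -0.51 with quantile normalization.

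**Figure D2:**
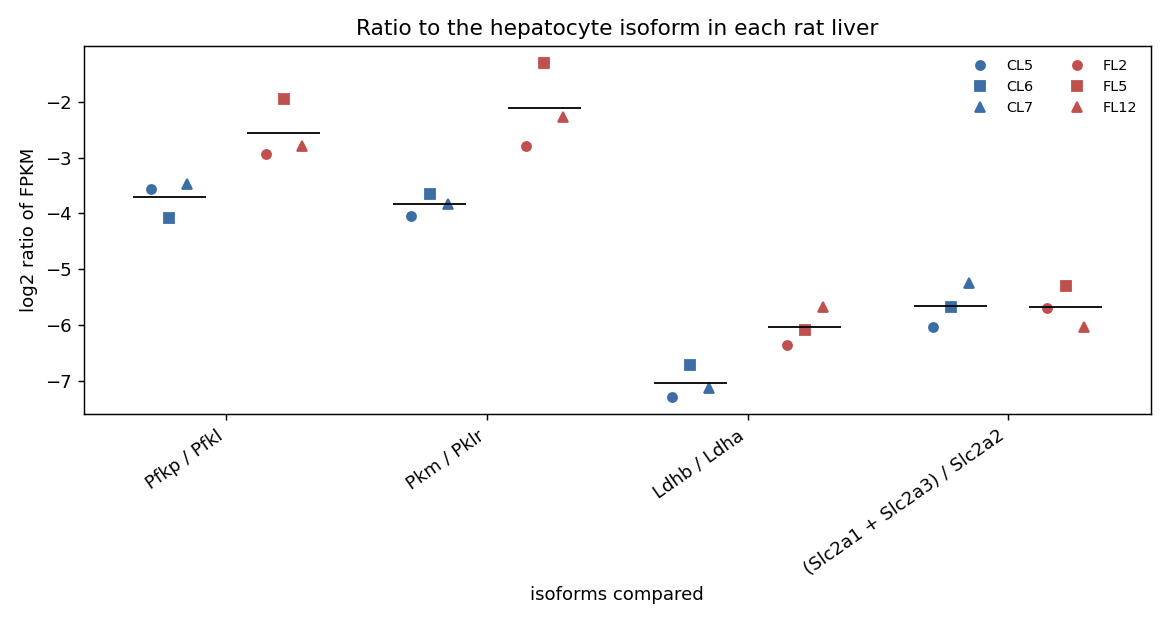
Log2 ratio of FPKM + 0.1 of each isoform, or sum of isoforms, to that of its hepatocyte counterpart in each of the 6 rats, with CL rats in blue, FL rats in red and a line at the mean of each group. Each FL rat lies above each CL rat for all ratios shown except that of Slc2a1 with Slc2a3 to Slc2a2.

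Of the 41 other genes of the pathway tested in 5 lists, the hepatocyte counterparts included, 4 were called higher (9.76%, against 9.29% of all genes) and 1 lower (2.44%, against 0.935%). Of the 4 called higher, Slc16a3 and Slc2a6 averaged under 0.1 FPKM in the CL group. They passed the filter only through the FL group, so being higher was in part a condition of their being tested. Of the 10 other glycolytic enzymes tested, 0 were called by limma, and 1 was higher at an unadjusted p under 0.05, against 31.5% of all genes. This was Gpi, which interconverts glucose and fructose phosphates (log2 fold change 0.88, adjusted p = 0.0123). Their median log2 fold change was 0.35 against 0.29 over all genes. Gapdh, at 0.53 to 2.88 FPKM, was not taken as a measure of its level, although it is counted among the 10. Copies of it stood higher, at 12.1 to 22.1 FPKM on chromosome 5 and 6.83 to 9.95 FPKM on chromosome 16. Whether reads of Gapdh were lost to these copies was not tested.

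Among the regulators, Pfkfb3, which makes an activator of phosphofructokinase, measured 0.62, 0.71 and 0.87 FPKM in the CL rats and 1.28, 1.84 and 1.88 FPKM in the FL rats (log2 fold change 1.08 ± 0.23, adjusted p = 0.0191). That call was lost without CL rat 5 (adjusted p = 0.0639), CL rat 6 (0.0586), FL rat 5 (0.0703) or FL rat 12 (0.0604), in a range of 0.011 to 0.124. It was also lost with a pseudocount of 1 (log2 fold change 0.62), median scaling (0.87) or quantile normalization (0.55), so that 7 of 14 alternatives lost it. Slc16a3, which exports lactate, measured 0.03, 0.08 and 0.07 FPKM in the CL rats and 0.40, 0.52 and 0.62 FPKM in the FL rats (log2 fold change 1.94 ± 0.35, adjusted p = 0.0106). Its call was lost with a pseudocount of 1 (log2 fold change 0.51) and in none of the 6 fits that left out a rat. All of those fits used the same filter, which Slc16a3 passed only through the FL group. Without a filter Slc16a3 was called too (adjusted p = 0.0221).

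Pdk4, an inhibitor of the pyruvate dehydrogenase complex, was lower, at 41.2, 41.6 and 35.9 FPKM in the CL rats and 23.7, 16.3 and 13.7 FPKM in the FL rats (log2 fold change -1.17 ± 0.20, adjusted p = 0.00861), and was called in all 14 alternatives. Its relative Pdk3 was higher, at 0.573 ± 0.0416 FPKM in the CL and 1.31 ± 0.313 FPKM in the FL group (log2 fold change 1.05, adjusted p = 0.0233). That call was lost without CL rat 5 (adjusted p = 0.0685), CL rat 6 (0.0696), CL rat 7 (0.0702), FL rat 5 (0.0818) or FL rat 12 (0.0660), in a range of 0.0112 to 0.18, and also with a pseudocount of 1, without a filter (0.0504), with median scaling or with quantile normalization, in 9 of 13 alternatives. The hexose transporter Slc2a6 was at 0.0567 ± 0.0737 FPKM in the CL and 0.443 ± 0.168 FPKM in the FL group (log2 fold change 1.84, adjusted p = 0.0325), and lost its call without CL rat 5 (0.0888), CL rat 6 (0.0903), FL rat 2 (0.0587), FL rat 5 (0.0534) or FL rat 12 (0.0982), in a range of 0.0318 to 0.144. With either other pseudocount, without a filter, with median scaling and with quantile normalization it was lost too, in 10 of 13 alternatives. The log2 fold change of Slc2a6 was 0.45 with a pseudocount of 1 and 3.46 with a pseudocount of 0.01. It was 1.84 without a filter, 1.71 with median scaling and 1.35 with quantile normalization. Bsg, a partner protein of lactate transporters, measured 112 ± 15.8 FPKM in the CL and 171 ± 28.5 FPKM in the FL group, with a log2 fold change of 0.61 (adjusted p = 0.0447), under the 2-fold limit, and 0.38 with median scaling (adjusted p = 0.221, in a range of 0.0414 to 0.221).

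Lists of markers of other cells were compared in the same livers. Shares called are of the markers that passed the filter. A marker low in the CL group can pass it through the FL group alone, as Ngp, Cftr, Cldn4 and Ciart did. The 12 macrophage markers summed to 213, 212 and 206 FPKM in the CL rats and to 424, 421 and 275 FPKM in the FL rats, Clec4f being the most abundant in the CL and C1qc in the FL group, and 4 of 12 were called higher (33.3%, against 9.29% of all genes). The 12 stellate cell or myofibroblast markers summed to 91.1, 96.6 and 88.4 FPKM in the CL rats and to 215, 562 and 513 FPKM in the FL rats, with Col3a1 the most abundant and 6 of 11 called higher (54.5%). FL rat 12 was lowest of the FL rats for the macrophage sum, and FL rat 2 for the stellate cell sum. FL rat 2 was the highest FL rat for Hk3 and Slc2a3, and FL rat 12 for Ldhb. FL rat 5 was highest for Hk1, Hk2, Pfkp, Aldoa, Aldoc, Slc2a1 and both Pkm genes.

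The 10 neutrophil markers summed to 1.01, 1.62 and 1.51 FPKM in the CL rats and to 7.96, 3.30 and 6.52 FPKM in the FL rats. S100a8 was the most abundant, and 4 of the 7 tested were called higher (57.1%). Camp, Elane and Mpo averaged under 0.1 FPKM in both groups and were not tested. Lymphocyte markers summed to 12.5, 10.5 and 11.5 FPKM in the CL rats and to 24.2, 31.4 and 24.6 FPKM in the FL rats, with 2 of 9 called higher (22.2%), Cd4 and Cd2. Most of that sum was Cd4, at 8.81 ± 0.973 and 21.1 ± 2.85 FPKM, which rat macrophages also express. Cd2 measured 0.243 ± 0.101 and 0.783 ± 0.15 FPKM (log2 fold change 1.39, adjusted p = 0.0233). Of the 7 not called, Cd79a was higher in every FL rat than in every CL rat (log2 fold change 0.96, adjusted p = 0.0781), while Cd3g (1.40, adjusted p = 0.131), Cd3d, Cd3e, Cd8a, Nkg7 and Cd79b overlapped between the groups. Cycling cell markers, led by Cdc20 in the CL and by Mki67 in the FL group, summed to 4.60, 8.74 and 5.52 FPKM in the CL rats and to 6.91, 31.8 and 28.2 FPKM in the FL rats, so that FL rat 2 lay within the CL range (2 of 10 called higher, 20%). Endothelial markers summed to 98.2 ± 4.65 and 118 ± 6.66 FPKM, with Kdr the most abundant in the CL and Lyve1 in the FL group and 1 of 10 (Vwf) called higher, a share (10%) near the 9.29% of all genes. Cholangiocyte markers summed to 23.2 ± 2.79 and 31.3 ± 4.56 FPKM, with Slc4a2 the most abundant and 0 of 10 called by limma, or 3 of 10 higher at an unadjusted p under 0.05, against 31.5% of all genes.

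Hepatocyte markers, led by Alb, summed to 53900 ± 1430 FPKM in the CL and 47800 ± 2670 FPKM in the FL group, with 0 of 12 called by limma, and 2 higher and 0 lower at an unadjusted p under 0.05. Every FL rat lay below every CL rat for 4 of the 12 (4.78% of all genes) and above for 2 (35.7%). Alb itself measured 32300 ± 1010 and 24800 ± 572 FPKM, with a log2 fold change of -0.38 whose SE of 0.98 exceeds the spread between rats, since limma sets the error of such abundant genes largely from other genes of like level. Red cell and platelet markers, led by Hbb, summed to 91.7, 156 and 113 FPKM in the CL rats and to 127, 52.8 and 56.3 FPKM in the FL rats, with 1 of 6 called higher (16.7%), the platelet gene Pf4 (log2 fold change 1.73, adjusted p = 0.0101). The red cell genes Hbb (-0.88, adjusted p = 0.0752), Hba1 (-0.74), Alas2 (-0.75) and Slc4a1 (0.10) overlapped between the groups and were not called. Skeletal muscle markers, led by Tnnt3, summed to 0.4 ± 0.0529 and 0.31 ± 0.0624 FPKM, and Myh7 and Mb were listed at 0 in every rat. Neural markers, led by Gfap, summed to 1.24, 1.38 and 1.28 FPKM in the CL rats and to 1.12, 2.31 and 1.57 FPKM in the FL rats, with 1 of 4 called higher (25%), Syp at 0.02 ± 0 and 0.243 ± 0.0751 FPKM. Gfap itself measured 0.913 ± 0.0751 and 0.583 ± 0.176 FPKM and was not called (log2 fold change -0.60, adjusted p = 0.143). Every FL rat lay below every CL rat for Gfap, and above for 2 of the 4, Syp and Tubb3. Both averaged under 0.1 FPKM in the CL group and passed the filter only through the FL group. A higher value in the FL group was thus in part a condition of their being tested, and the 25% is not read as a result. Of the 9 neural markers listed, only these 4 passed the filter. Clock genes that peak with Dbp summed to 19.9 ± 1.75 FPKM in the CL and 95.8 ± 6.99 FPKM in the FL group, with Tef the most abundant in the CL and Dbp in the FL group (0.727 and 28.2 FPKM for Dbp) and 7 of 9 called higher (77.8%). Those of the opposite phase, led by Nfil3, summed to 47 ± 3.02 and 21.6 ± 3.74 FPKM, with 4 of 5 called lower (80%, against 0.935% of all genes). The part of these cells and of the clock in the levels of the glycolytic genes was not tested.

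The genes whose profiles over the 6 rats came closest to a called isoform were sought among the 10527 other genes tested that averaged 1 FPKM or more, by the root mean square difference of centred log2(FPKM + 0.1) values. For Hk2 the nearest was Cd68, a macrophage lysosome protein, at a distance of 0.072, with 11.6, 12.4 and 11.2 FPKM in the CL rats and 35.8, 48.5 and 31.8 FPKM in the FL rats, followed by Rn60_10_0705.2 at 0.108. For Hk3 they were Scimp (0.179) and LOC680910 (0.184), and for Pfkp Ncr2 (0.097) and Lgals3bp (0.106). For Pkm on chromosome 8 they were Pld3 (0.108) and Serpinb1a (0.125), and for Pkm on chromosome 20 Kifc3 (0.124) and Pld3 (0.135). The 0.1 added weighs more on a low gene such as Hk2 than on Cd68, so these distances depend on it. No other pseudocount was tried in this search.

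Promoter sequences of RefSeq (build GRCr8) were at hand for 9 of the 10 symbols, in 12 windows, and for Pfkl, Pklr, Ldha and Slc2a2. The 250 bases before each start were searched on both strands for ACGTG (the core of the hypoxia response element), for CACGTG (an E box, which contains the former) and for GGGCGG (a GC box). ACGTG was in 5 of the 12 windows and in 16.6% of all 33469 promoters, CACGTG in 0 and in 5.59%, and GGGCGG in 6 and in 30.5%. The windows of the 4 called isoforms and of Pklr, the counterpart of Pkm, are shown because they let the isoforms that were higher together be compared, with matches to any of these letters in capitals.
Hk2 chr4:116841276-116841525, minus strand: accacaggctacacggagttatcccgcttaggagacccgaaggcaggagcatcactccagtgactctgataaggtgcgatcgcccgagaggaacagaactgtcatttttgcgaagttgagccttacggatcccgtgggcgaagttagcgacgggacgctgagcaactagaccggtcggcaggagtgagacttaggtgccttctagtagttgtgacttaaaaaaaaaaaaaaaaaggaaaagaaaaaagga
Hk3 chr17:9604781-9605030, plus strand: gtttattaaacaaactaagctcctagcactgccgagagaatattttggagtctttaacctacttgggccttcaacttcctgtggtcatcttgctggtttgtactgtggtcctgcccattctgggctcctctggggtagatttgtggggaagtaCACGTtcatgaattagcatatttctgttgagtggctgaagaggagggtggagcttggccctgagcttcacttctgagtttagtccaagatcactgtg
Pkm chr8:68953385-68953634, plus strand: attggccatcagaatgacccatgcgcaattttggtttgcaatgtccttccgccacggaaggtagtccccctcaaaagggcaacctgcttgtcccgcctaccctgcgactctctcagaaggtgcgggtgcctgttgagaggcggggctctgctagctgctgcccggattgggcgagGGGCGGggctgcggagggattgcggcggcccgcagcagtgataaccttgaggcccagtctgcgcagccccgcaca
Pfkp chr17:68639563-68639812, plus strand: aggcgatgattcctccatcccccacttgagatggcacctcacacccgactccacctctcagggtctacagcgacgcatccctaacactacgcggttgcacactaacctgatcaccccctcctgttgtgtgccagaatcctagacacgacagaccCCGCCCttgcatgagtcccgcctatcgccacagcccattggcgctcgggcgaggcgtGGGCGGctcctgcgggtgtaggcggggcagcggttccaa
Pklr chr2:176841014-176841263, plus strand: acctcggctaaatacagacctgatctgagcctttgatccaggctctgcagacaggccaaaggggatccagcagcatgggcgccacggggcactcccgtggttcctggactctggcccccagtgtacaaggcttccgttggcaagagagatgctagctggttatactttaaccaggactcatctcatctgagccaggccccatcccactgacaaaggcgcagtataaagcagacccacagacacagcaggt
Pkm held 1 GC box and Pfkp 2, Hk3 held 1 ACGTG, and Hk2 and Pklr held none of these letters. Of the counterparts not shown, Pfkl held 4 GC boxes and Slc2a2 none of the motifs. Ldha held 3 matches to ACGTG, 1 to CACGTG and 3 GC boxes. The share of G and C was 63.2% for Pkm and 62.8% for Pfkp, against 49.6% for Hk2, 46.8% for Hk3 and a median of 51.2% over all promoters, and none of the motifs searched was in the windows of all 4 called isoforms.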

How the data were processed

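RNA was measured in the livers of 3 CL and 3 FL rats, 1 library each, grouped by their labels. The authors aligned trimmed reads using TopHat2, kept those that mapped to 1 place, and deposited FPKM per gene with 2 decimals. The submitters' notes name GRCh38, whereas the genes carry rat Ensembl identifiers. Which annotation was used is not given in the sources used here. A further 2 columns of values, which match no sample, were not used. No read counts were used. An SD given is the spread between rats. An SE given is that of limma, which draws the spread between rats toward that of genes of like level. Log2(FPKM + 0.1) was compared with limma 3.58.1 in R 4.3.3, with a prior that follows the mean and Benjamini-Hochberg adjustment over 14864 genes averaging 0.1 FPKM or more, after a test on simulated data. Ratios were compared by exact permutation. Pairs of rats shared identical values above 0 in 0.78% to 2.28% of genes. Alternatives were pseudocounts of 1 and 0.01, no filter or a filter at 1 FPKM, quantile normalization, median scaling over genes above 1 FPKM in every rat, a robust prior or no trend in limma, no fold limit, and leaving out each rat. Using each Pkm gene alone in its ratio was chosen after seeing the data. Genes named were the isoforms, their counterparts, called genes of the pathway lists or those with a mean of at least 100 FPKM, the 2 nearest profiles of each called isoform, and the markers that were most abundant or listed at 0. Others were named after their values were seen. The isoforms and lists were chosen with earlier results of these data known. Hkdc1, Eno2, Tigar, Mlxipl, Pdha1, Pecam1, Gp1bb, Myh4 and Myh2 were not analysed here, and some genes of the lists and the ratios that use them are not reported here. Figures used Python 3.11.15 with pandas 2.3.3, numpy 2.4.6 and matplotlib 3.10.9.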

Additional observations from a re-analysis of the deposited data

How the results depend on the processing

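Of 577 values recomputed under an alternative, 474 kept their direction and side of the threshold, or stayed within 1.5 times for a count, 30 lost and 9 gained a call, 56 counts moved by more and 8 changed sign. Of the glycolytic isoforms, with Pkm counted as 2 genes, 3 were called higher with a pseudocount of 1 and 5 to 7 when 1 rat was left out. In any alternative, 0 were called lower. Hk3 and both Pkm genes were called in all 14 alternatives that kept the fold limit. All genes called higher and lower were 462 and 72 with a pseudocount of 1, 846 and 78 without a filter, 2518 and 288 without a fold limit, and 453 and 231 with quantile normalization. Those called higher were 854 at a mean of at least 1 FPKM and 824 with median scaling. Leaving out 1 rat gave 740 (without CL rat 7, and 745 without FL rat 5) to 1831 (without FL rat 2) higher and 81 (without CL rat 6 or CL rat 7) to 160 (without FL rat 2) lower. Other pathway genes called higher were 0 with a pseudocount of 1, 2 without a filter, 7 without a fold limit, and 1 at a mean of at least 1 FPKM, with median scaling or with quantile normalization. Those called lower were 2 without a fold limit. Leaving out 1 rat gave 1 (without CL rat 6, FL rat 5 or FL rat 12) to 4 higher and 1 to 2 (without CL rat 5) lower. The log2 fold change of Slc2a1 was -0.12 with median scaling, -0.40 with quantile normalization, and -0.07 to 0.25 when 1 rat was left out. Pklr was at -0.10 and Slc2a2 at -0.06 with median scaling. The log2 ratio of Slc2a1 with Slc2a3 to Slc2a2 differed by -0.21 to 0.18 when 1 rat was left out and by -0.51 with quantile normalization. The other 3 ratios given kept their direction in every alternative, and that of Pkm to Pklr differed by 1.78 with the chromosome 8 gene alone and by 1.56 with the chromosome 20 gene alone. Where the number of genes tested or of rats did not change, the cause was not tested. No paired analysis was possible because the groups share only the rat number 5.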
